A study of Mus musculus with 26 samples.

Results

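Sgk1, Klf9, Fkbp5, Tsc22d3, Nr3c1, Zbtb16 and Ddit4 are 7 genes of the glucocorticoid response, taken by symbol from the 25814 genes of each deposited table. The libraries hold mRNA of T cells that flow cytometry had enriched from Peyer's patches, the lymphoid follicles of the small intestinal wall, of C57Bl/6 mice. The 26 libraries formed 4 groups. CD4+ T cells came from mice on an elemental diet (n = 6), in which free amino acids stand in for protein, and from mice on a conventional diet (n = 6). The other groups were T cells sorted as CD44+ (n = 7) or as CD44- (n = 7), both from conventionally fed mice. The CD4+ libraries were made from 22 ng of total RNA by poly(A) selection and a standard kit, and the CD44+ and CD44- libraries from 1 ng with a low-input kit. Across the pairs, population, RNA input and kit cannot be told apart, so each pair was compared only within itself. The labels give neither the age nor the sex of the mice. They do not say whether replicates were separate animals, so p-values measure only the spread between these samples, which may be technical. Whether CD4 was part of the gate in the CD44 sorts is not given either.

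Glucocorticoids are steroid hormones that bind a receptor held in the cytoplasm by chaperones. The bound receptor enters the nucleus, attaches to DNA at paired half-sites and raises or lowers the transcription of nearby genes. In T cells the hormone curbs activation, can cause apoptosis and changes trafficking, and the intestinal epithelium can itself make glucocorticoids. Nr3c1 encodes the receptor. Fkbp5 encodes an immunophilin of the receptor complex that lowers its affinity for hormone and that the receptor in turn induces. Tsc22d3 encodes GILZ, a mediator of anti-inflammatory effects of glucocorticoids. Sgk1 encodes a kinase related to Akt, Ddit4 encodes REDD1, an inhibitor of mTORC1, and Klf9 and Zbtb16 encode zinc-finger transcription factors.

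Each CD4+ library held 16401589 to 25415205 exon reads, and each CD44+ or CD44- library 7180390 to 13378353. Levels are given as CPM, the exon reads of a gene relative to the TMM-scaled library size, and n is 6 libraries for each diet group and 7 for each CD44 group unless another n is given. Cd3e, a subunit of the T cell receptor complex, averaged 177 ± 21.2 CPM in elemental and 205 ± 8.90 CPM in conventional libraries (SD), and 1964 ± 589 CPM in CD44+ and 1212 ± 495 CPM in CD44- libraries. Cd4 averaged 239 ± 45.9 CPM in elemental and 353 ± 78.6 CPM in conventional libraries (log2 fold change -0.56 ± 0.16 SE, edgeR adjusted p = 0.0250). Cd44 averaged 157 ± 94.5 CPM in CD44+ and 81.2 ± 30.2 CPM in CD44- libraries and was not called (log2 fold change 0.95 ± 0.40, edgeR adjusted p = 0.303). The RNA of Cd44 was thus higher on average but not distinguishable between the sorts at this spread.

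The 7 genes did not move as a unit between the diets. Sgk1 and Klf9 were higher and Fkbp5 was lower in CD4+ T cells of elemental-diet mice, while Tsc22d3, Ddit4 and Nr3c1 did not pass the test and Zbtb16 had too few reads to be tested. Called means an adjusted p under 0.05 in edgeR's quasi-likelihood test, with Benjamini-Hochberg adjustment over all genes tested. Of the 6 tested genes 3 were called, against 17.4% of the 11938 genes tested. The 2 higher calls stand against 9.68% of all genes called higher, and the 1 lower call against 7.75% called lower. At an unadjusted p under 0.05 there were 4 of 6, against 33.8% of all genes. The elemental and conventional ranges were free of overlap for 0 of the 6, against 7.16% of all genes. The median log2 fold change of the 6 was 0.57, beside -0.01 over all genes tested. With all 4 groups in 1 fit, which shares the spread of the CD44+ and CD44- libraries, 0 of the 6 were called. In that fit only 0.0167% of 11975 genes were called between the diets. In these bulk samples, fewer cells of a type and less RNA per cell cannot be told apart.

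Nr3c1 (chromosome 18, 39410545 to 39491301, minus strand, GRCm38; all gene positions are those of the deposited tables) had 45.0, 54.8 and 72.9 CPM as its lowest, median and highest value in elemental libraries, against 38.3, 63.8 and 99.1 CPM in conventional libraries. The receptor's values overlapped over most of their range, and conventional replicate 1 was the highest. Means were 56.4 ± 10.7 CPM in elemental and 63.8 ± 21.8 CPM in conventional libraries, and the log2 fold change of -0.18 ± 0.20 (SE) was not called (edgeR adjusted p = 0.552).

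Fkbp5 (chromosome 17, 28399095 to 28517524, minus strand) had 20.6, 29.3 and 33.2 CPM as its lowest, median and highest value in elemental libraries, against 30.7, 41.5 and 55.8 CPM in conventional libraries. All 6 elemental libraries lay below the conventional mean. Of the conventional libraries, replicate 6 alone fell into the elemental range, below elemental replicates 2, 3 and 5. The gene averaged 28.5 ± 4.91 CPM in elemental and 42.2 ± 8.05 CPM in conventional libraries, a log2 fold change of -0.57 ± 0.14 (edgeR adjusted p = 0.0134). Its sign was opposite to that of Sgk1 and Klf9.

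Tsc22d3 (chromosome X, 140539528 to 140600659, minus strand) had 91.7, 167 and 244 CPM as its lowest, median and highest value in elemental libraries, against 89.2, 104 and 148 CPM in conventional libraries. Elemental replicates 1, 2, 5 and 6 were above every conventional library, whereas replicates 3 and 4 lay within the conventional range. Means were 170.2 ± 58.5 CPM in elemental and 109 ± 23.6 CPM in conventional libraries. The log2 fold change of 0.65 ± 0.22 missed the threshold (edgeR adjusted p = 0.0550), with 5 of 6 elemental libraries above the conventional mean. It was called without elemental replicate 3 (adjusted p = 0.0113) and without conventional replicate 6 (adjusted p = 0.0315), and by DESeq2 (adjusted p = 0.0128), so its call depends on single libraries and on the tool. Of all genes, 16.7%, 31.9% and 20.5% were called in these 3 fits, in this order.

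Sgk1 (chromosome 10, 21882184 to 21999903, plus strand) had 26.4, 32.6 and 49.2 CPM as its lowest, median and highest value in elemental libraries, against 18.6, 21.7 and 27.9 CPM in conventional libraries. Elemental replicate 4 was the only elemental library below the highest conventional one, replicate 3. Means were 36.3 ± 9.84 CPM in elemental and 22.0 ± 3.23 CPM in conventional libraries, 1.65-fold higher (log2 fold change 0.72 ± 0.16, edgeR adjusted p = 0.00766).

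Ddit4 (chromosome 10, 59949669 to 59951834, minus strand) had 162, 267 and 316 CPM as its lowest, median and highest value in elemental libraries, against 126, 160.0 and 292 CPM in conventional libraries. Elemental replicates 1, 2 and 5 were above every conventional library, and conventional replicate 6 stood apart from the other conventional libraries. Means were 248 ± 71.2 CPM in elemental and 176 ± 61.0 CPM in conventional libraries, and the log2 fold change of 0.49 ± 0.23 was not called (edgeR adjusted p = 0.152). Without conventional replicate 6 the log2 fold change was 0.69 ± 0.20 and was called (edgeR adjusted p = 0.0219), in a fit that called 31.9% of all genes.

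Klf9 (chromosome 19, 23141226 to 23166911, plus strand) had 3.47, 5.49 and 6.88 CPM as its lowest, median and highest value in elemental libraries, against 2.01, 2.32 and 4.21 CPM in conventional libraries. All 6 elemental libraries were above the conventional mean, and conventional replicate 2 alone reached into the elemental range, above elemental replicates 3 and 4. Means were 5.28 ± 1.52 CPM in elemental and 2.61 ± 0.813 CPM in conventional libraries, 2.01-fold higher (log2 fold change 1.01 ± 0.26, edgeR adjusted p = 0.0171). These levels rest on 67 to 134 exon reads per elemental library and 33 to 102 per conventional library.

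Zbtb16 (chromosome 9, 48654297 to 48836222, minus strand), the gene of PLZF, which marks innate-like T cells such as NKT cells, had 0, 0.162 and 0.747 CPM as its lowest, median and highest value in elemental libraries, against 0, 0.0309 and 0.741 CPM in conventional libraries. No library held more than 20 exon reads of it, and it was at 0 in 2 elemental and 3 conventional libraries. A difference was not detectable at this depth.

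**Figure D1:**
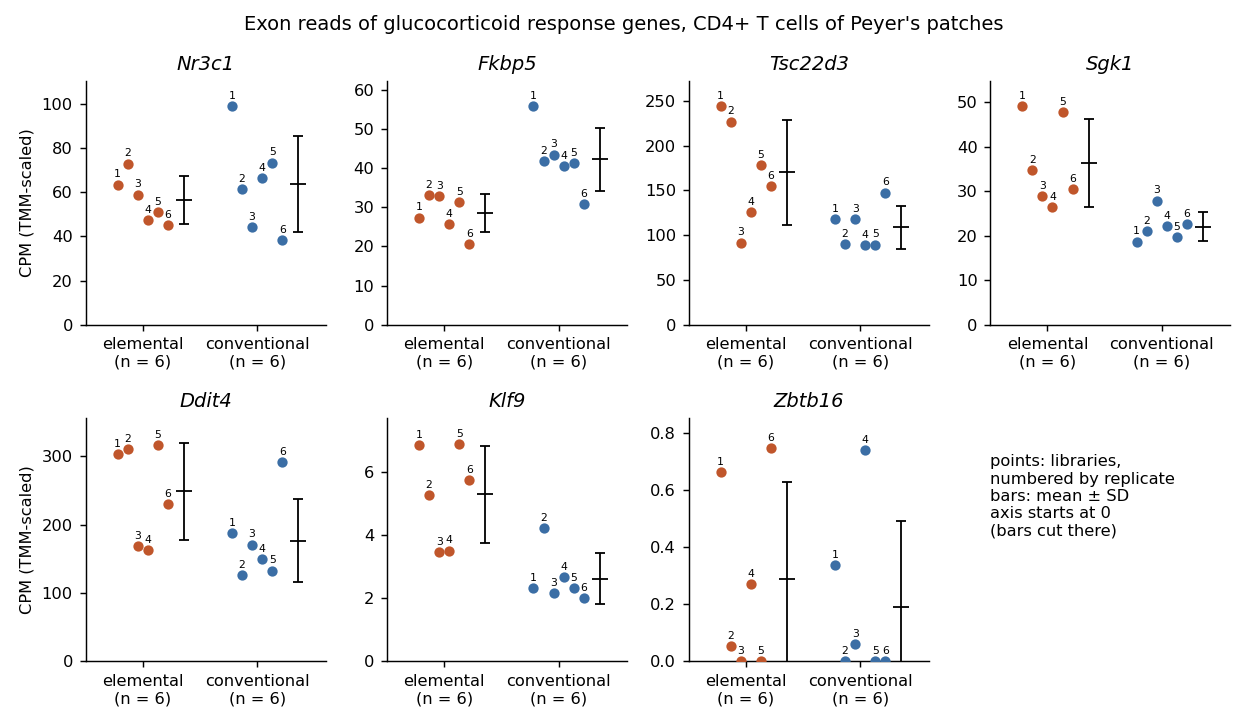
CPM of exon reads of the 7 genes (vertical axis, linear, from 0) in elemental (n = 6, left) and conventional (n = 6, right) CD4+ libraries; points are libraries with their replicate number and bars are mean ± SD. Sgk1 and Klf9 lay higher and Fkbp5 lower in elemental libraries, with overlap between the groups for each gene.

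Within the elemental group, the same libraries were at the top for several of these genes. Replicates 1, 2 and 5 were the highest for Sgk1, Tsc22d3 and Ddit4, and replicates 3 and 4 the lowest for these genes and for Klf9. In this group, the summed level of 14 genes of the immediate-early and heat shock response, which respond to handling of cells, followed the same split. It was 3300.1 CPM in replicate 1, 2445 CPM in replicate 5 and 2241 CPM in replicate 2, against 1728, 1639 and 1032 CPM in replicates 3, 6 and 4. Over the groups this sum ran from 1032 to 3300.1 CPM in elemental and from 1018 to 2005 CPM in conventional libraries. The conventional group did not show that split for Tsc22d3 and Ddit4. Its replicate 6 had the lowest sum but the highest Tsc22d3 and Ddit4 (148 and 292 CPM). Its replicate 2 had the highest sum but the lowest Ddit4 (126 CPM). Klf9 went with the sum at both ends, highest in replicate 2 and lowest in replicate 6, and Sgk1 at neither. In that list 3 of 14 genes were called higher and 1 lower (median log2 fold change 0.54). The heat shock genes Hspa1b and Hspa1a had log2 fold changes of 1.66 ± 0.38 and 1.27 ± 0.35, and the immediate-early gene Egr1 of -0.64 ± 0.16 (edgeR adjusted p = 0.0132, 0.0308 and 0.0151 in this order). The fourth called gene, Ier2, named after its value was seen, was at 0.50 ± 0.15. The part of this response in the values of the 7 genes was not tested.

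RNA of other cell types also differed between the diets. Myeloid and dendritic markers were called higher for 12 of 13 genes and lower for 0, with summed levels of 885 to 1622 CPM in elemental and 453 to 631 CPM in conventional libraries. Epithelial markers were called higher for 6 of 19 and lower for 0, with sums of 1172 to 2599 CPM in elemental and 99.5 to 1560.1 CPM in conventional libraries, of which replicate 6 held the highest. Without that library 14 of 19 were called, beside 31.9% of all genes. Markers of B cells (4 of 12), germinal centre B cells (6 of 6) and plasma cells (4 of 6) were lower, with 0 higher, although 0 of the B cell markers were called without conventional replicate 4, beside 10.8% of all genes. Their sums were 244 to 530.1, 41.9 to 55.8 and 377 to 857 CPM in elemental and 400.2 to 759, 99.7 to 180.0 and 917 to 1948 CPM in conventional libraries. Of the alpha-beta T cell core genes 4 of 13 were lower and 0 higher, with sums of 4405 to 5036 CPM in elemental and 4614 to 5422 CPM in conventional libraries. Innate-like lymphocyte markers had 3 of 12 higher and 1 lower, CD8 markers 1 of 2 higher and 0 lower, stromal and endothelial markers 1 of 6 lower and 0 higher, and erythroid markers 0 of 4 in either direction. The part of any of these cell types in the values of Sgk1, Klf9 and Fkbp5 was not tested.

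Compared per kilobase of exon, so that genes of different length can be set side by side, Ddit4 was the most abundant of the 7 in both diet groups, at 142 ± 40.6 CPM per kb in elemental and 101 ± 34.8 CPM per kb in conventional libraries. Tsc22d3 came next, at 61.4 ± 21.1 and 39.2 ± 8.50 CPM per kb in elemental and conventional libraries, with no overlap with Ddit4 in either group. Sgk1, Nr3c1 and Fkbp5 formed a middle tier whose order differed between the diets. In elemental libraries they stood at 8.59 ± 2.33, 7.60 ± 1.44 and 6.64 ± 1.14 CPM per kb in that order, and in conventional libraries Fkbp5 led with 9.85 ± 1.88 CPM per kb, then Nr3c1 with 8.59 ± 2.94 and Sgk1 with 5.22 ± 0.766. Neighbours in this tier overlapped in both groups. Klf9 followed at 1.62 ± 0.467 CPM per kb in elemental and 0.801 ± 0.249 CPM per kb in conventional libraries, and Zbtb16 was last, each below all libraries of the gene before it.

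The start regions of the 3 called genes are shown because the receptor acts by binding DNA near the genes it controls. RefSeq windows of 250 bases before a transcription start (GRCm38.p6) were found for Sgk1, Klf9, Fkbp5, Tsc22d3 and Ddit4. The palindromic receptor element was searched on both strands as AGAACA followed, after any 3 bases, by TGTTCT, and is in capitals in the Sgk1 window. The E-box CACGTG, the motif bound by clock factors, was also searched on both strands and is in capitals in the Fkbp5 window. The Sgk1 window also holds that E-box, left in lower case, and the Klf9 window holds no match to either.
Sgk1, chr10:21993640-21993889, plus strand: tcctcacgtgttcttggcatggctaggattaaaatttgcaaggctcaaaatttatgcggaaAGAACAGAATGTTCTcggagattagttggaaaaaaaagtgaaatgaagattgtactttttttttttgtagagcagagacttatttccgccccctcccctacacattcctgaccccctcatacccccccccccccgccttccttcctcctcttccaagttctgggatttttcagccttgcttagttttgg
Klf9, chr19:23140976-23141225, plus strand: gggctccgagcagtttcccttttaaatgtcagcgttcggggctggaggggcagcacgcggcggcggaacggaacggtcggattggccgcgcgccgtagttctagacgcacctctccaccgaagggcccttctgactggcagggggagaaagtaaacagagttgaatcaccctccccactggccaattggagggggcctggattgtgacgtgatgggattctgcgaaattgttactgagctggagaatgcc
Fkbp5, chr17:28486150-28486399, minus strand: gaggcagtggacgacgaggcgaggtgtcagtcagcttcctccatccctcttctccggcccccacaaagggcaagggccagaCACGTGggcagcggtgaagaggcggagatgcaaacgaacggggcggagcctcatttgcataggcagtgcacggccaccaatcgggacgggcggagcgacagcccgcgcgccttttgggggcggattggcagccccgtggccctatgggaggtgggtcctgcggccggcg
The element of Sgk1 lies at chr10:21993701-21993715, 189 to 175 bases before one of 6 annotated starts of the gene and 951 bases before the most downstream start. The window overlaps the Sgk1 gene and no annotated exon. This full palindrome was in 3 of 32851 windows, a share of 0.00913%. The shorter core ACANNNTGT, which lies inside the full element, was in 5.84% of windows, and the half-site TGTTCT, which forms each arm of it, in 16.1%. Besides Sgk1, no window of Klf9, Fkbp5 or Ddit4 held the core or a half-site, and 1 of 3 windows of Tsc22d3 held a half-site. Sgk1 had 6 windows and Klf9, Fkbp5 and Ddit4 had 1 each. Sequence outside these windows was not searched, so elements elsewhere in or near the genes would be missed. The E-box was in 6.02% of windows, and in Fkbp5 it lies 169 to 164 bases before the start. A match is a stretch of letters and not a measured binding site.

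Intron reads of the same libraries, which can come from unspliced RNA, gave a second readout. Their origin was not tested. Of the 7 genes, 4 had enough intron reads to be tested in the diet comparison and 0 were called, against 4.39% of 7059 genes, or 2.34% called higher. At an unadjusted p under 0.05 there was 1 of 4, against 15.9% of all genes. Under each of the 4 alternatives run on these reads, 0 were called as well. Tsc22d3 was the gene with the unadjusted p under 0.05, at 40.4 ± 18.7 CPM of intron reads in elemental and 23.1 ± 8.69 CPM in conventional libraries (log2 fold change 0.81 ± 0.39, edgeR adjusted p = 0.296). Sgk1 introns were at 26.5 ± 16.7 CPM of intron reads in elemental and 37.4 ± 6.60 CPM in conventional libraries (log2 fold change -0.48 ± 0.41, edgeR adjusted p = 0.646). The intron value of Sgk1 lay on the other side of 0 from its exon value without passing the test, and its introns held 3 to 43 reads per elemental library and 25 to 36 per conventional library. For Fkbp5 the intron log2 fold change was -0.13 ± 0.26, and for Nr3c1 it was 0.10 ± 0.19. Too few intron reads were present to test Klf9, Ddit4 and Zbtb16.

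**Figure D2:**
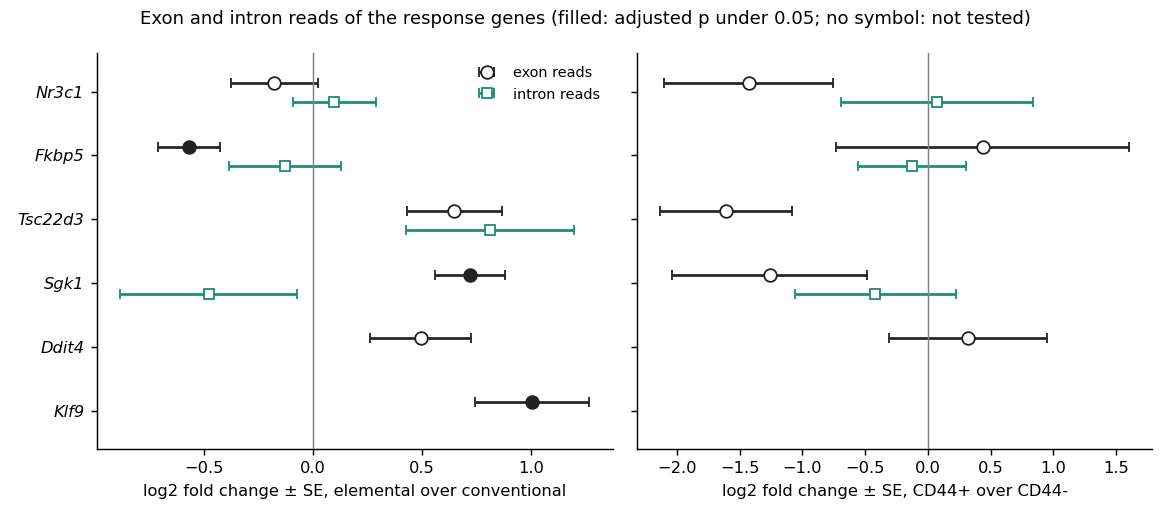
Log2 fold change ± SE (horizontal axis) of 6 of the genes for exon reads (circles) and intron reads (squares), elemental over conventional on the left and CD44+ over CD44- on the right; filled symbols have an adjusted p under 0.05 and a missing symbol was not tested. The exon reads of Sgk1 and Klf9 were called higher and those of Fkbp5 lower in elemental libraries, and no symbol is filled on the right.

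Genes that work with the 7 were examined as lists, whose counts of called members stand beside 9.68% of all genes called higher and 7.75% called lower. Of 30 other genes that glucocorticoids induce, 26 were tested, 3 were higher and 1 was lower (median log2 fold change 0.16). Nfkbia, the inhibitor of NF-kappaB, was at 363 ± 42.9 CPM in elemental and 243 ± 39.1 CPM in conventional libraries (log2 fold change 0.58 ± 0.11, edgeR adjusted p = 0.00276). Sesn1, a sestrin, and Txnip, a thioredoxin-binding brake on glucose uptake, had log2 fold changes of 0.49 ± 0.08 and 0.29 ± 0.09. Il1r2, a decoy receptor for interleukin-1, was lower at 13.5 ± 3.13 CPM in elemental and 22.3 ± 3.06 CPM in conventional libraries (log2 fold change -0.73 ± 0.16, edgeR adjusted p = 0.00656). The induced genes Per1, Dusp1 and Il7r were not called, with log2 fold changes of -0.43 ± 0.25, 0.64 ± 0.41 and -0.17 ± 0.20. Of the receptor's chaperones and coactivators, 1 of 16 was higher and 2 were lower, with a median log2 fold change of -0.49. Fkbp4, another immunophilin of the receptor complex, was at 120.0 ± 8.59 CPM in elemental and 101 ± 9.43 CPM in conventional libraries (log2 fold change 0.25 ± 0.08, edgeR adjusted p = 0.0425), opposite in sign to Fkbp5. The co-chaperone Stip1 and the chaperone Hsp90ab1 were lower (log2 fold changes -0.57 ± 0.17 and -0.49 ± 0.16), while Hsp90aa1 was not called (0.18 ± 0.08). These counts depend on single libraries, as does the share of all genes called. Without conventional replicate 6 they were 2 higher and 9 lower for the chaperones and coactivators and 5 higher and 2 lower for the induced genes. In that fit 31.9% of 12098 genes were called in either direction. Without conventional replicate 4 the counts were 0 and 1, and 2 and 1, beside 10.8% of 12061 genes.

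Of 12 genes that make, inactivate or respond to steroids or transport them, 3 were at 0 in all libraries of both diets and 5 held enough reads to be tested, of which 1 was higher and 0 were lower. The higher one was Hsd11b1, which regenerates active hormone, at 66.4 ± 7.54 CPM in elemental and 49.9 ± 8.22 CPM in conventional libraries (log2 fold change 0.41 ± 0.11, edgeR adjusted p = 0.0194). Cyp11b1, whose enzyme makes corticosterone, was listed at 0 in all libraries of both diets. Nr3c2, the mineralocorticoid receptor, which also binds corticosterone, was near the detection limit at 1.03 ± 0.346 CPM in elemental and 0.704 ± 0.396 CPM in conventional libraries and was not called (edgeR adjusted p = 0.484).

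Among partners and targets of the SGK1 kinase, 4 of 13 were higher and 1 was lower (median log2 fold change 0.32). Ndrg1, a direct substrate of SGK1, was at 21.2 ± 5.34 CPM in elemental and 8.86 ± 2.18 CPM in conventional libraries (log2 fold change 1.26 ± 0.20, edgeR adjusted p = 0.000907). Sgk3, a paralog of the kinase, had a log2 fold change of 0.63 ± 0.13, and Rictor, the mTORC2 subunit needed to activate SGK1, of -0.91 ± 0.29. S1pr1, also called and named after its value was seen, had a log2 fold change of 0.35 ± 0.09. Of 10 regulators of mTORC1, the complex that REDD1 inhibits, 1 was higher and 2 were lower. Deptor, an inhibitor of mTOR, was at 5.04 ± 1.93 CPM in elemental and 1.05 ± 0.393 CPM in conventional libraries (log2 fold change 2.26 ± 0.33), and Tsc1 and Sesn3 had log2 fold changes of -0.89 ± 0.29 and -0.62 ± 0.15.

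Of 17 tested paralogs of the 7 genes, 1 was higher and 0 were lower. Tsc22d1, a relative of Tsc22d3, was at 32.1 ± 6.03 CPM in elemental and 10.5 ± 2.93 CPM in conventional libraries (log2 fold change 1.62 ± 0.18, edgeR adjusted p = 7.85e-05), and its relative Tsc22d4 was not called (-0.08 ± 0.08). Klf9 is also an output of the circadian clock, so clock genes were listed, and 3 of 15 were higher and 0 lower. Nr1d1, which encodes the repressor REV-ERB alpha, had a log2 fold change of 1.19 ± 0.19, and the clock output gene Dbp of 0.77 ± 0.11. The labels give no hour of collection, and the part of the hour in these values was not tested.

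**Figure D3:**
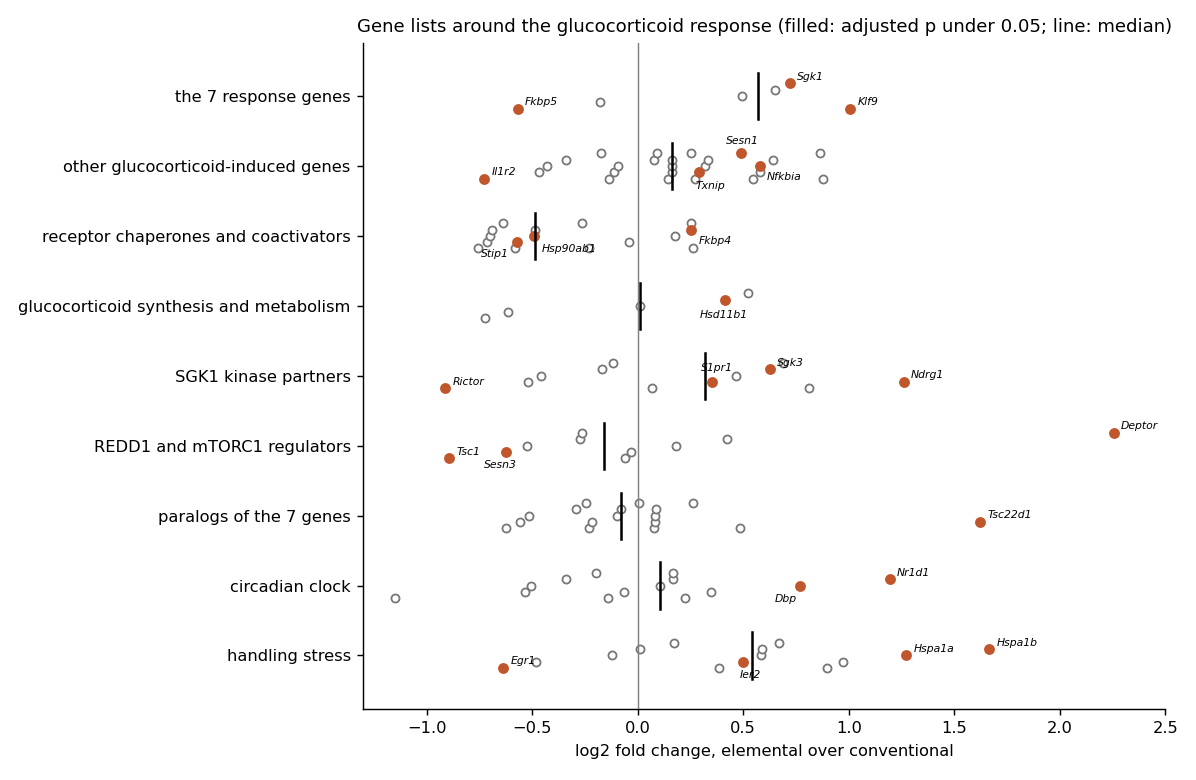
Log2 fold change of exon reads, elemental over conventional (horizontal axis), for tested genes of 9 lists; filled points were called and are named, open points were not, and black lines are list medians. The 7 response genes have a median of 0.57 over 6 tested genes and hold called genes on both sides of 0, as do 5 of the other 8 lists.

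Between CD44+ and CD44- cells, which asks how the genes differ between T cells with and without this mark of antigen experience, none of the 7 genes was called. Tsc22d3 and Nr3c1 were lower on average in CD44+ libraries, but by differences that did not pass the test. Of 5 genes tested 0 were called by edgeR, against 0.767% of 8343 genes, 0.3% called higher and 0.467% called lower. DESeq2 and limma-voom also called 0 of these 5, against 7.6% of 10730 and 0.995% of 8343 genes in this order. At an unadjusted p under 0.05 there were 2 of 5, against 13.4% of all genes. The groups were free of overlap for 0 of the 5, against 0.755% of all genes. Detection was uneven between these low-input libraries, in which introns took 20.6% to 29.0% of exon and intron reads in CD44+ and 9.39% to 27.0% in CD44- libraries.

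Tsc22d3 had 7.22, 154 and 277 CPM as its lowest, median and highest value in CD44+ libraries, against 235, 353 and 669 CPM in CD44- libraries. All 7 CD44+ libraries were below the CD44- mean, and CD44+ replicates 4 and 8 reached into the CD44- range. Means were 141 ± 97.7 CPM in CD44+ and 431 ± 193 CPM in CD44- libraries (log2 fold change -1.61 ± 0.53, edgeR adjusted p = 0.165). Among the alternatives run, it was called only with all 4 groups in 1 fit (edgeR adjusted p = 0.0185). That fit called 14.6% of 11975 genes, against 0.767% in the main test.

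Nr3c1 had 5.06, 10.7 and 61.7 CPM as its lowest, median and highest value in CD44+ libraries, against 12.9, 60.6 and 100.1 CPM in CD44- libraries. In CD44+ libraries replicates 1 and 8 stood above the others, and in CD44- libraries replicate 5 stood below the others. The log2 fold change was -1.43 ± 0.67 (edgeR adjusted p = 0.365), with 7 of 7 CD44+ libraries below the CD44- mean. The intron reads of the receptor gene differed by 0.07 ± 0.77 on the log2 scale and were not called.

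Sgk1 had 8.41, 10.8 and 67.6 CPM as its lowest, median and highest value in CD44+ libraries, against 6.21, 27.0 and 117 CPM in CD44- libraries. Its highest CD44+ value was in replicate 8, and in CD44- libraries replicates 1, 2 and 8 were high and the others low. The log2 fold change was -1.26 ± 0.78 (edgeR adjusted p = 0.531).

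Fkbp5 had 0.594, 4.31 and 108 CPM as its lowest, median and highest value in CD44+ libraries, against 0.905, 3.54 and 81.6 CPM in CD44- libraries. The highest value in each group was in replicate 5, and without that library the means were 4.83 ± 4.51 CPM in CD44+ and 3.21 ± 2.09 CPM in CD44- libraries (SD, n = 6 each). The log2 fold change of 0.44 ± 1.17 (edgeR adjusted p = 0.911) turned to -1.56 ± 1.10 without CD44+ replicate 5 and came to 2.59 without CD44- replicate 5. Introns took 75.3% of the Fkbp5 reads of CD44+ libraries and 79.1% of those of CD44- libraries, beside 15.6% in elemental and 10.7% in conventional CD4+ libraries. Over all genes the intron share also differed between the pairs. It was 20.6% to 29.0% in CD44+, 9.39% to 27.0% in CD44-, 3.33% to 4.08% in elemental and 3.97% to 4.61% in conventional libraries. Population, RNA input and kit differ between the pairs and cannot be told apart here. The source of the Fkbp5 gap was not tested.

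Ddit4 had 10.003, 11.7 and 22.7 CPM as its lowest, median and highest value in CD44+ libraries, against 4.01, 9.91 and 24.0 CPM in CD44- libraries (log2 fold change 0.32 ± 0.63, edgeR adjusted p = 0.880). Klf9 had at most 0.716 CPM in CD44+ libraries, and CD44- replicates 4 and 5 alone were above that, with 6.72 and 11.9 CPM. Zbtb16 had at most 2 exon reads in a CD44+ library and at most 4 in a CD44- library. Klf9 and Zbtb16 were not tested because too few libraries held enough reads.

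**Figure D4:**
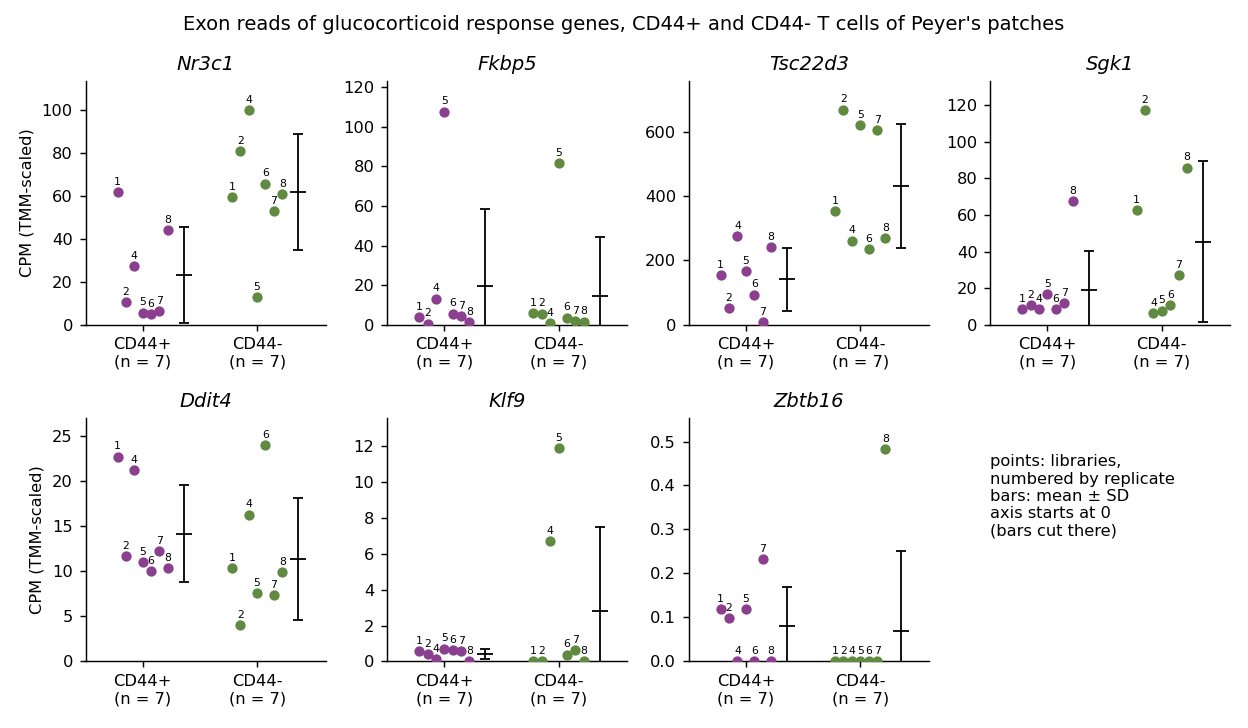
CPM of exon reads of the 7 genes (vertical axis, linear, from 0) in CD44+ (n = 7, left) and CD44- (n = 7, right) libraries; points are libraries with their replicate number and bars are mean ± SD, cut at 0. Tsc22d3 averaged 141 CPM in CD44+ and 431 CPM in CD44- libraries, and the Fkbp5 means rest on replicate 5 of each group.

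Per kilobase of exon, Tsc22d3 was the most abundant of the 7, at 51.0 ± 35.3 CPM per kb in CD44+ and 156 ± 69.6 CPM per kb in CD44- libraries. In CD44- libraries it stood above all values of Sgk1, the next gene at 10.7 ± 10.4 CPM per kb, whereas in CD44+ libraries its range overlapped that of Ddit4, the next gene at 8.08 ± 3.08 CPM per kb. Below the leading gene, the ranges of neighbouring genes overlapped in both groups, except that all CD44+ libraries had more Nr3c1 than any had Klf9. In introns, 0 of the 3 testable genes, Sgk1, Fkbp5 and Nr3c1, were called, against 0.0553% of 7236 genes, or 0.0138% called higher, and 0 had an unadjusted p under 0.05, against 11% of all genes. Under each of the 4 alternatives run on these reads, 0 were called as well.

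The same lists were examined between the CD44 groups, where 0.767% of all genes were called. S1pr1, the receptor for exit from lymphoid tissue, was at 80.0 ± 23.4 CPM in CD44+ and 249 ± 128 CPM in CD44- libraries (log2 fold change -1.64 ± 0.38, edgeR adjusted p = 0.0433). Of 11 tested SGK1 partners, 2 were lower, S1pr1 among them, and 0 were higher. The chaperone Hspa8 was the 1 lower of 16 chaperones and coactivators (log2 fold change -2.08 ± 0.42), and Klf13, a relative of Klf9, the 1 lower of 18 paralogs (log2 fold change -2.34 ± 0.53), with 0 higher in either list. None was called among 23 other glucocorticoid-induced genes, 4 genes of hormone synthesis and metabolism, 8 mTORC1 regulators, 10 clock genes and 14 handling-stress genes. Plasma cell markers were called higher for 2 of 5, Jchain and Mzb1, and summed to 3840.3 to 8101 CPM in CD44+ and 397 to 3135 CPM in CD44- libraries. Innate-like lymphocyte markers were higher for 2 of 8, with 0 lower, and the other marker lists held 0 calls. The part of plasma cell RNA in the values of the 7 genes was not tested.

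As a description of which genes had the most similar pattern, log2 CPM was scaled within the 12 CD4+ and within the 14 CD44+ and CD44- libraries, and the root mean square difference to each of 8144 other genes was averaged over both sets. A lower value is more alike, and the median over all genes was 1.35 to 1.43 for the genes tested in both comparisons. For Sgk1 the closest gene was Cdkn2d (0.599), then Coq10b and Rnf167. For Fkbp5 it was Papola (0.623), then Apobec3 and Gna13, and for Nr3c1 it was Spn (0.570), then Rbm15b and Zranb2. For Tsc22d3 it was Slc16a5 (0.667), then Txnip (0.676), a gene of the list of other glucocorticoid-induced genes, and Rps4x. For Ddit4 it was Dbi (0.767), then Rpl35a and Rps27. Among the 5 genes themselves the closest pair was Sgk1 and Tsc22d3 (0.902), and Fkbp5 lay farther from Sgk1 (1.66), Ddit4 (1.61) and Tsc22d3 (1.51) than the median gene did.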

How the data were processed

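RNA-seq was analysed from 26 libraries of sorted mouse Peyer's patch T cells. For each library the authors deposited whole-number read counts for 25814 genes, split into exon and intron reads, with an exon length per gene, per the file headers; lengths served only for levels per kilobase. Per the submitters' processing notes the genome build was GRCm38, and neither aligner nor counter is given in the sources used here. Groups came from the diet and cell type labels. No libraries of the same group were duplicates (lowest chi-square per degree of freedom 11.9, over genes with at least 20 reads). Pairs of libraries from different groups were not checked.

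Each pair of groups was fitted on its own in R 4.3.3 with edgeR 4.0.16 (filterByExpr, TMM factors, robust quasi-likelihood test, two-sided, Benjamini-Hochberg adjustment over all genes tested). Genes with an adjusted p under 0.05 were called. Fold changes are elemental over conventional and CD44+ over CD44-. SE is |log2 fold change| over the root of the F statistic, and log2 CPM used a prior count of 2. Alternatives used DESeq2 1.42.0, limma 3.58.1, other scalings, filters and read types, a replicate block and leaving out libraries. The scripts were tested on simulated data.

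The 7 genes and the 18 other lists were chosen with earlier results of these data known. From each pathway list the 3 called genes with the largest change were named, besides a fixed set of partners (Fkbp4, Hsp90aa1, Tsc22d1, Tsc22d4, Per1, Dusp1, Il7r, Txnip, Nr3c2). Promoter sequences are from RefSeq (GRCm38.p6); none was matched for Nr3c1 or Zbtb16. No other annotated gene overlapped any of the 7. Castor1 was not matched. A few list genes count towards list totals but are not reported here by name. Replicate numbers were not treated as pairing the samples, because the labels do not say whether they do. Deviations of same-numbered libraries from their group means correlated at -0.14 to 0.27 between the diets and at -0.04 to 0.12 between the CD44 groups. These values do not settle whether same-numbered samples share a source.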

Additional observations from a re-analysis of the deposited data

Results flagged for a closer look

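Within groups of 6 or 7 libraries, 6 of 28 sets of values had a library set far apart from the others by Dixon's test on CPM. The usual chance rate of about 1 in 20 holds for normally distributed values. CPM are bounded at 0, so that rate is no measure of excess here. In conventional CD4+ libraries these were Klf9 in replicate 2, at 4.21 CPM, and Ddit4 in replicate 6, at 292 CPM. In CD44+ libraries they were Sgk1 in replicate 8, at 67.6 CPM, and Fkbp5 in replicate 5, at 108 CPM. In CD44- libraries they were Fkbp5 in replicate 5, at 81.6 CPM, and Zbtb16 in replicate 8, at 0.483 CPM, with 6 of 7 libraries at 0. Each was the highest of its group, and 4 of the 6 were in the low-input libraries. Fkbp5 was set apart in replicate 5 of both the CD44+ and the CD44- group. Conventional replicate 6, with the high Ddit4 value, also had the lowest Fkbp5, Nr3c1 and Klf9, the highest Tsc22d3, and the highest summed epithelial markers of its group, at 1560.1 CPM.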

How the results depend on the processing

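Between the diets, the calls of Sgk1, Klf9 and Fkbp5 kept their direction and side of the threshold in 22 of 23 alternatives and lost the call only with all 4 groups in 1 fit, where 0 of the genes and 2 genes in all were called. In the main test 3 of the genes and 2081 genes in all were called. With limma-voom these were 5 and 4095, and with conventional replicate 6 and elemental replicate 3 both left out 5 and 3969. Leaving out 1 library gave 3 to 5 and 1299 to 3865, the lowest without conventional replicate 4, 1316 without elemental replicate 4, and the highest, with 5 of the genes, without conventional replicate 6. The cause was not tested. Tsc22d3 passed the threshold in 6 and Ddit4 in 3 of 23 alternatives.

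Between CD44+ and CD44- cells, 0 of the genes and 64 genes in all were called. With all 4 groups in 1 fit these were 1 (Tsc22d3, log2 fold change -1.49, adjusted p = 0.0185) and 1748. Genes in all came to 815 with DESeq2, 109 with at least 1 CPM in every library of a group, 101 with total gene reads, and 36 to 87 leaving out 1 library. The lowest was without CD44+ replicate 5 or 7, with 37 without CD44+ replicate 6 and 41 without CD44- replicate 4. Fkbp5 reversed to -1.56 (adjusted p = 0.625) without CD44+ replicate 5, and its log2 fold change ran up to 2.59 without CD44- replicate 5. With the replicate block 37 were called, against 3 of the 7 genes and 2033 in all between the diets. The labels do not say whether same-numbered samples share a source. That 1 of 6 and 1 of 7 libraries correlated best with its own number cannot settle it, given the spread between libraries. The replicate block changed no call of the 7 genes.

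Zbtb16 in all groups and Klf9 in the CD44 groups had too few reads to be tested, although Klf9 reached 108 exon reads in 1 library. There Klf9 had a log2 fold change of -2.73 by DESeq2 (adjusted p = 0.243). Counting error is only part of the spread between libraries of a group (lowest chi-square per degree of freedom 11.9). The reads carry no molecular identifiers.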
